A study of Mus musculus with 10 samples.

Results

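The genes described here are 32 genes of the oligodendrocyte lineage, from its transcription factors to the proteins of compact myelin, out of the 22000 genes counted in the prefrontal cortex (PFC) of *Zbtb16* knockout (KO) and wild-type (WT) mice. They were chosen by name and not by a cut on a measured value, but with earlier results of these data known. Counts of them beside all genes are therefore descriptions. By stage they were 5 lineage factors, 4 genes of newly formed oligodendrocytes, 11 genes of myelin structure, 4 genes of myelin lipid metabolism and 8 other genes of mature oligodendrocytes. All 32 were in the count table and all 32 passed the filter on low counts, with at least 189 counts in every mouse. *Zbtb16* encodes a zinc-finger transcription factor, and the study asked how its loss affects the PFC, myelination included. The KO group was 5 mice with both copies of *Zbtb16* replaced by *lu*, an allele with a nonsense point mutation carried by the B6.C3-Zbtb16lu/J strain, and the WT group was 5 mice without it. All 10 were 7 weeks old and labelled male, and 1 library of mRNA was made from each mouse. The mutation is present in every cell of the body, so an effect that starts in oligodendrocytes and an effect that reaches them from other cells cannot be told apart in these samples.

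Oligodendrocytes arise from precursor cells, pass through a short newly formed state and then wrap axons with myelin, a lipid-rich membrane that speeds conduction. OLIG1, OLIG2 and SOX10 mark the whole lineage, MYRF switches on the myelin programme, BCAS1 and ENPP6 mark cells that have just left the precursor state, and MBP, MOBP, MAG and MOG build the sheath. In the cortex, cells go on maturing into adult life.

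The total was 31644888 to 51231439 counts in the KO mice and 30220122 to 47343536 in the WT mice, so that 3 counts, the floor used for detection, equalled 0.0586 to 0.0993 CPM (counts scaled to the library total). *Zbtb16* itself (chr9:48654297-48836222, minus strand, GRCm38) was at 49.1, 50.7, 42.1, 52.8 and 42.2 CPM in KO mice 1 to 5 and at 84.0, 88.3, 73.9, 70.7 and 77.9 CPM in WT mice 1 to 5. Every KO mouse was below every WT mouse, and the KO mean was 60.0% of the WT mean (log2 fold change -0.67, SE 0.06, adjusted p = 3.42e-05). KO mouse 3 had 1 count over 4 Y-linked genes against 4376 to 8182 in the other mice, which goes against its male label. Results that rest on it are therefore also given without it. RNA integrity numbers (RIN) ranged from 8.1 to 9.7 in KO mice and from 8.2 to 9.8 in WT mice. Genotypes were compared with the quasi-likelihood test of edgeR on genotype and 3 surrogate variables. These give each mouse a weight, derived from its expression profile, for differences between libraries other than genotype. The largest weight of the first surrogate variable was that of KO mouse 5 (0.88). On the second, KO mouse 2 (0.74) and WT mouse 5 (0.37) had the highest weights. These mice also had the highest summed CPM of the genes described here (8631 and 7916). WT mouse 1 had the lowest weight on the second (-0.35), with a sum of 7154, above those of KO mice 1, 3 and 5. How far the weights carry the level of these genes, or RIN, was not tested. The same test on genotype alone is given beside the one with surrogate variables. The p-values of these 2 fits were adjusted over the 14344 genes tested. Fits on fewer mice, without the count filter or by DESeq2 were adjusted over the genes that each of them kept.

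Most of the 32 genes had a negative log2 fold change in KO PFC, of unequal size, and those of the most abundant genes of the sheath were close to 0. Of the 32 genes, 2 fell at a false discovery rate of 0.05, *Qdpr* and *Car2*, both in the group of other mature genes. Across all genes tested, 32 fell, which is 0.223%. None of the 32 rose at the same threshold, where 83 genes did (0.579%), and none of them reached an unadjusted p under 0.05 in that direction, where 5.48% of all genes did. In the downward direction 15 of the 32 had an unadjusted p under 0.05, against 5.08% of all genes. With genotype alone, none of the 32 fell at the adjusted threshold (0.0558% of all genes did) and 4 had an unadjusted p under 0.05, *Opalin*, *Aspa*, *Qdpr* and *Car2* (3.83% of all genes). A log2 fold change below 0 was found for 27 of the 32, against 52.2% of all genes.

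By stage, the median log2 fold change was -0.12 for the lineage factors, -0.22 for the genes of newly formed cells, -0.06 for myelin structure, -0.16 for lipid metabolism and -0.17 for the other mature genes. With genotype alone these medians were -0.10, -0.18, -0.04, -0.09 and -0.14. The median over all 32 genes was -0.14 and the median over all genes tested was -0.00. The median of the 32 genes depended on single mice: it was -0.13 without KO mouse 3, -0.04 without KO mouse 1, -0.07 without KO mouse 5, -0.03 without WT mouse 5 and -0.18 without KO mouse 2, and -0.06 with 1 surrogate variable. Without KO mouse 1 the median of the newly formed genes was -0.11 and that of myelin structure -0.01, and without WT mouse 5 these were -0.09 and 0.03. Whether the stages differ from each other was not tested. In bulk tissue, fewer oligodendrocytes and less RNA of these genes per oligodendrocyte cannot be told apart.

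**Figure D1:**
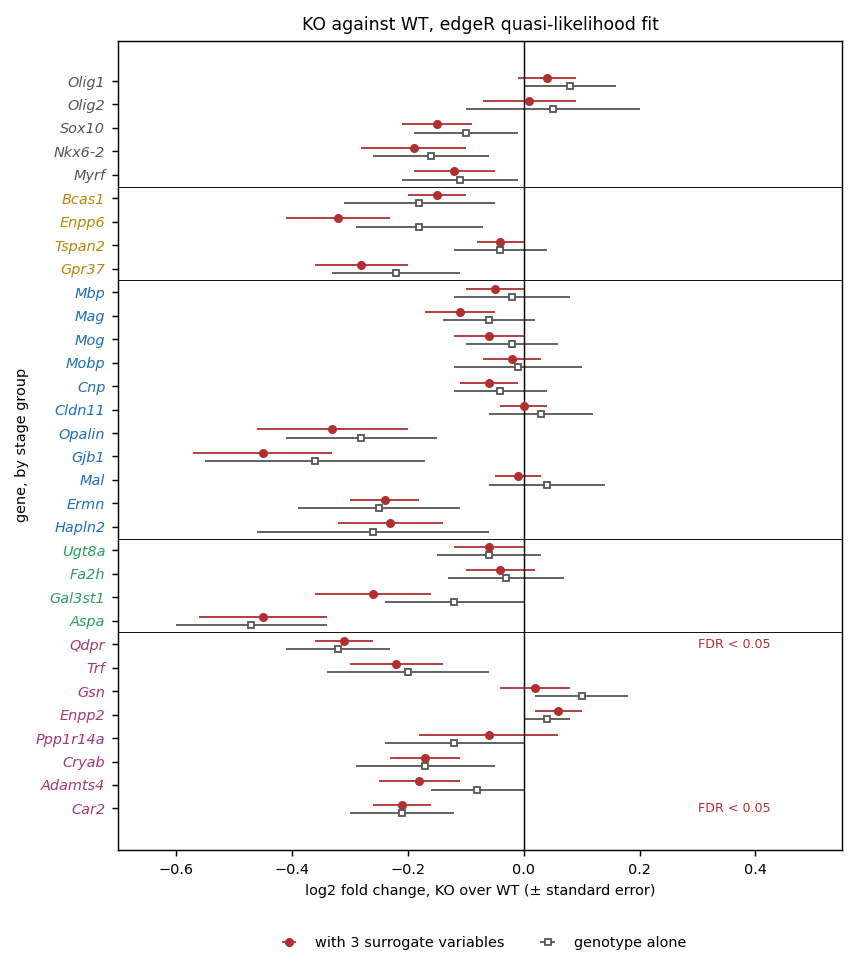
Log2 fold change, KO over WT, of each of the 32 genes by stage, with its SE, in the fit with 3 surrogate variables and in the fit on genotype alone. Genes past a false discovery rate of 0.05 are marked: *Qdpr* at -0.31 and *Car2* at -0.21, while *Mbp*, *Mobp*, *Cldn11* and *Mal* lie within 0.05 of 0 and *Aspa* and *Gjb1* lie farthest below it, at -0.45.

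Among the lineage factors, none passed the test. *Olig1* (chr16:91269772-91271933), a basic helix-loop-helix factor and the most abundant of the group per kilobase of exon (47.8 CPM per kb), was at 95.6, 129, 100, 112 and 92.9 CPM in the KO mice and at 103, 95.2, 94.8, 96.3 and 113 CPM in the WT mice. KO mouse 2 was the highest of all 10 and KO mouse 5 the lowest, and the groups overlapped (log2 fold change 0.04, SE 0.05, adjusted p = 0.833). *Olig2*, its partner in specifying the lineage, was at 28.1 ± 7.96 CPM (SD, n = 5) in KO and 27.1 ± 2.94 CPM in WT mice (log2 fold change 0.01, 95% interval -0.15 to 0.18). *Sox10* (chr15:79154908-79165240), which acts with MYRF on myelin genes, was at 31.4, 41.0, 34.0, 31.5 and 28.8 CPM in the KO mice and at 35.8, 31.9, 36.3, 41.6 and 32.7 CPM in the WT mice. In it 3 of 5 KO mice lay below the lowest WT mouse while KO mouse 2 lay near the highest WT mouse (log2 fold change -0.15, SE 0.06, adjusted p = 0.379). *Nkx6-2* (chr7:139579376-139582797), a homeobox factor of maturing oligodendrocytes, was at 8.22, 10.7, 8.97, 9.33 and 8.21 CPM in the KO mice and at 9.07, 10.4, 8.82, 11.0 and 11.5 CPM in the WT mice. Its groups overlapped, with a log2 fold change of -0.19 (SE 0.09, adjusted p = 0.478), and 12.9% of its exon sequence is shared with *Inpp5a* on the opposite strand. *Myrf* had a log2 fold change of -0.12 (SE 0.07).

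All 4 genes of newly formed oligodendrocytes had a negative log2 fold change and none passed the test. *Bcas1* (chr2:170346991-170427845), a marker of cells that are starting to myelinate, was at 138, 199, 144, 182 and 119 CPM in the KO mice and at 172, 194, 139, 169 and 210 CPM in the WT mice. Both groups spread widely and overlapped (log2 fold change -0.15, SE 0.05, adjusted p = 0.203). It was -0.20 without KO mouse 2 (adjusted p = 0.038), -0.16 without KO mouse 3 (adjusted p = 0.394) and -0.03 without KO mouse 1 (adjusted p = 0.924). Without KO mouse 5 it was -0.08 (adjusted p = 0.612) and without WT mouse 5 it was 0.02 (adjusted p = 0.983). *Enpp6* (chr8:46986887-47096762), a choline phosphodiesterase used as a marker of the same cells, was at 9.88, 15.8, 11.3, 11.9 and 15 CPM in the KO mice and at 14.9, 14.8, 13.7, 13.5 and 15.4 CPM in the WT mice. KO mice 1, 3 and 4 were below all WT mice, and KO mice 2 and 5 were within or above the WT range (log2 fold change -0.32, SE 0.09, adjusted p = 0.163). *Gpr37* (chr6:25665878-25690729), an orphan receptor that restrains oligodendrocyte differentiation, was at 40.7, 60.8, 40.2, 51.9 and 38.2 CPM in the KO mice and at 55.4, 49.3, 51.6, 57.0 and 57.4 CPM in the WT mice. KO mice 1, 3 and 5 were below the lowest WT mouse and KO mouse 2 was above the highest (log2 fold change -0.28, SE 0.08, adjusted p = 0.127). Over the 10 fits that left out 1 mouse it ranged from -0.34 to -0.19, with adjusted p from 0.0301 (without KO mouse 2) to 0.546 (without WT mouse 5). *Tspan2*, a tetraspanin of the myelin membrane, was at 183 ± 25.2 CPM in KO and 188 ± 17.7 CPM in WT mice (log2 fold change -0.04).

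The genes of myelin structure held both the most abundant of the 32 genes and the one at the lowest level, and none of the 11 passed the test. *Mbp*, which encodes the protein that compacts the cytoplasmic faces of the sheath, made up 42.9% of the summed CPM of the 32 genes. It was at 2608, 3847, 2710, 3281 and 2514 CPM in the KO mice and at 3086, 3139, 2658, 2926 and 3412 CPM in the WT mice. The lowest and the highest mouse were both KO mice, and the log2 fold change was -0.05 (SE 0.05, 95% interval -0.15 to 0.05, adjusted p = 0.779). *Mobp*, another small basic protein of the sheath, was at 1107 ± 218 CPM in KO and 1115 ± 150 CPM in WT mice (n = 5 each), with an interval of -0.11 to 0.08 around a log2 fold change of -0.02. *Cnp*, *Mag* and *Mog*, which encode an enzyme of the cytoplasmic channels, an adhesion protein facing the axon and a glycoprotein of the outer surface, had log2 fold changes of -0.06, -0.11 and -0.06. *Cldn11*, the tight junction protein of the sheath, and *Mal*, a proteolipid of lipid rafts, were at 0.00 and -0.01, and the sign of *Mal* was positive with genotype alone (0.04).

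The lower log2 fold changes in this group belonged to less abundant genes. *Ermn* (chr2:58045113-58052864), which encodes the cytoskeletal protein ermin, was at 49.8, 77.8, 52.6, 64.2 and 37.9 CPM in the KO mice and at 60.2, 76.3, 59.5, 66.9 and 71.1 CPM in the WT mice. KO mice 1, 3 and 5 were below every WT mouse and KO mouse 2 was above every WT mouse, so the groups overlapped. The log2 fold change was -0.24 (SE 0.06, adjusted p = 0.062), and it passed without KO mouse 2 (-0.33, adjusted p = 0.00267) and without KO mouse 4 (-0.29, adjusted p = 0.0298). It was smaller without KO mouse 1 (-0.10, adjusted p = 0.652), KO mouse 5 (-0.16, adjusted p = 0.362) or WT mouse 5 (-0.12, adjusted p = 0.772). Without KO mouse 3 it was -0.22 (adjusted p = 0.193). *Gjb1* (chrX:101376378-101385629), the gap junction protein connexin 32, was at 7.09, 11.3, 6.29, 5.58 and 4.5 CPM in the KO mice and at 9.10, 8.11, 8.20, 9.84 and 9.10 CPM in the WT mice. Here 4 of 5 KO mice were below every WT mouse and KO mouse 2 was the highest of all (log2 fold change -0.45, SE 0.12, adjusted p = 0.112). Over the fits that left out 1 mouse it ranged from -0.55 to -0.32, with adjusted p from 0.0295 (without KO mouse 2) to 0.499 (without KO mouse 4). *Opalin*, a sialylated membrane protein, had a log2 fold change of -0.33 (SE 0.13, adjusted p = 0.358), and *Hapln2*, a link protein of the nodal matrix, one of -0.23 (SE 0.09, adjusted p = 0.364).

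**Figure D2:**
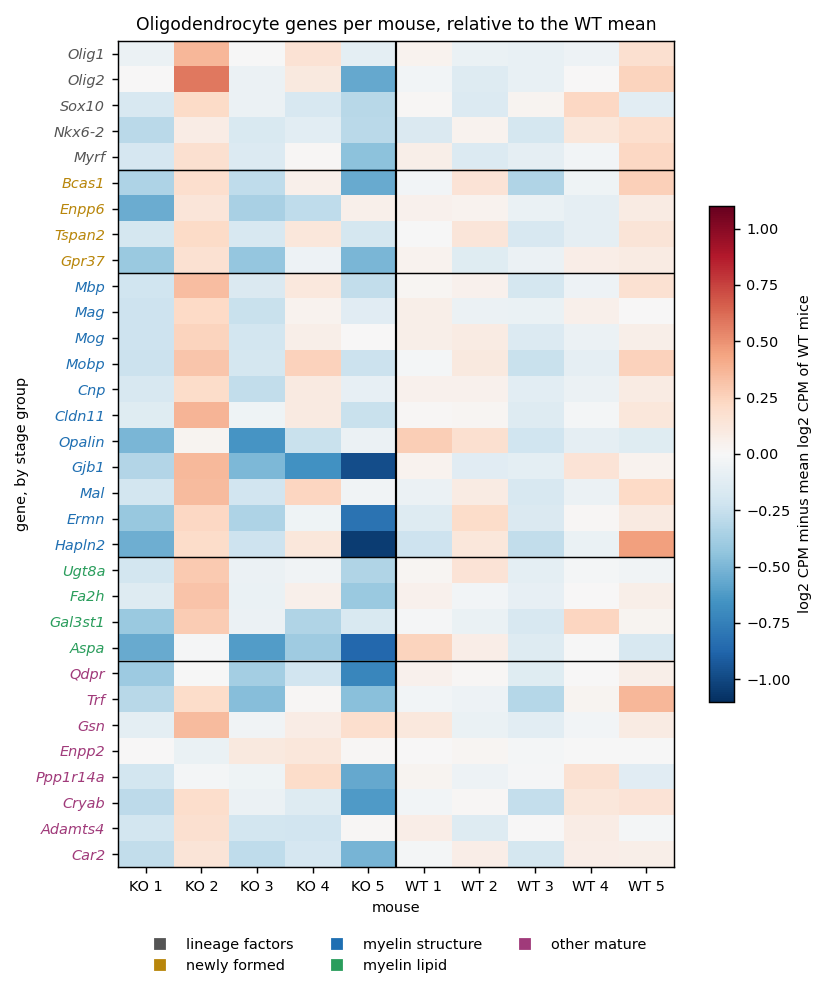
Heat map of the 32 genes (rows, by stage) in the 10 mice (columns), coloured by log2 CPM minus the mean log2 CPM of the WT mice, from blue (lower) to red (higher). KO mouse 2 is above the WT mean in most rows and KO mice 1, 3 and 5 are below it in most rows, as is WT mouse 3.

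Of the genes of myelin lipid metabolism, *Aspa* differed most, without passing the test. *Aspa* (chr11:73304992-73329596, minus strand) encodes aspartoacylase, which releases acetate from N-acetylaspartate for lipid synthesis. It was at 10.9, 15.9, 10.5, 12.2 and 8.83 CPM in the KO mice and at 19.0, 16.9, 14.5, 16 and 14.2 CPM in the WT mice. KO mouse 2 alone reached into the WT range, and the KO mean was 72.2% of the WT mean. The log2 fold change was -0.45 (SE 0.11, adjusted p = 0.0863) and -0.47 with genotype alone (adjusted p = 0.284), and over the fits that left out 1 mouse it ranged from -0.52 to -0.34, with adjusted p from 0.0132 (without KO mouse 2) to 0.289 (without KO mouse 3). *Ugt8a* (chr3:125865271-125938619), whose enzyme makes galactosylceramide and which was the most abundant of this group (17.1 CPM per kb), was at 68.6, 96.2, 75.6, 77.0 and 62.7 CPM in the KO mice and at 80.0, 87.6, 73.0, 77.9 and 76.6 CPM in the WT mice. The KO mice lay on both sides of the WT mice (log2 fold change -0.06, SE 0.06, adjusted p = 0.789). *Gal3st1*, whose enzyme turns galactosylceramide into sulfatide, had a log2 fold change of -0.26 (SE 0.10, adjusted p = 0.354), and *Fa2h*, the fatty acid 2-hydroxylase, one of -0.04 (SE 0.06).

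Both genes that fell were among the other mature genes. *Qdpr* (chr5:45434021-45450236, minus strand) encodes dihydropteridine reductase, which regenerates tetrahydrobiopterin, the cofactor of aromatic amino acid hydroxylases, and was the most abundant of this group per kilobase (77.7 CPM per kb). It was at 117, 154, 119, 133 and 93.8 CPM in the KO mice and at 159, 156, 141, 155 and 161 CPM in the WT mice. KO mice 1, 3, 4 and 5 were below every WT mouse, and KO mouse 2 was above the lowest WT mouse. *Qdpr* was 79.9% of the WT level, 123 ± 22.0 against 154 ± 7.93 CPM (SD, n = 5 each). The log2 fold change was -0.31 (SE 0.05, 95% interval -0.42 to -0.21, adjusted p = 0.00466). Without KO mouse 3 it was -0.30 (adjusted p = 0.0324). The call was lost without KO mouse 1 (adjusted p = 0.0583), without WT mouse 5 (adjusted p = 0.118) and with genotype alone (log2 fold change -0.32, adjusted p = 0.334). An opposite-strand gene, *Gm42413*, overlaps 18.6% of its exon sequence, and whether the counting used strand is not given in the sources used here.

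*Car2* (chr3:14886273-14900770, plus strand) encodes carbonic anhydrase 2, which is abundant in oligodendrocytes. It was at 129, 172, 128, 137 and 109 CPM in the KO mice and at 153, 164, 136, 164 and 163 CPM in the WT mice. KO mice 1, 3 and 5 were below every WT mouse while KO mouse 2 was the highest of all 10. *Car2* was 86.6% of the WT level, with a log2 fold change of -0.21 (SE 0.05, 95% interval -0.31 to -0.12, adjusted p = 0.0392). The call was lost without KO mouse 1, 3, 4 or 5 (adjusted p of 0.247, 0.176, 0.174 and 0.181), without WT mouse 4 or 5 (0.199 and 0.464) and with genotype alone (log2 fold change -0.21, adjusted p = 0.607).

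The other 6 genes of this group did not pass. *Cryab*, a small heat shock protein, *Adamts4*, a matrix protease, and *Trf*, the iron carrier transferrin, had log2 fold changes of -0.17, -0.18 and -0.22. For *Trf*, 63.5% of the exon sequence is shared with another coding gene on the same strand, *Gm20425*, so its counts are uncertain. *Enpp2*, the lipid phosphodiesterase autotaxin, had the narrowest spread, at 316 ± 17.9 CPM in KO and 308 ± 3.02 CPM in WT mice (log2 fold change 0.06, 95% interval -0.01 to 0.14). *Gsn*, the actin-severing protein gelsolin, and *Ppp1r14a*, an inhibitor of myosin phosphatase, had log2 fold changes of 0.02 and -0.06.

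**Figure D3:**
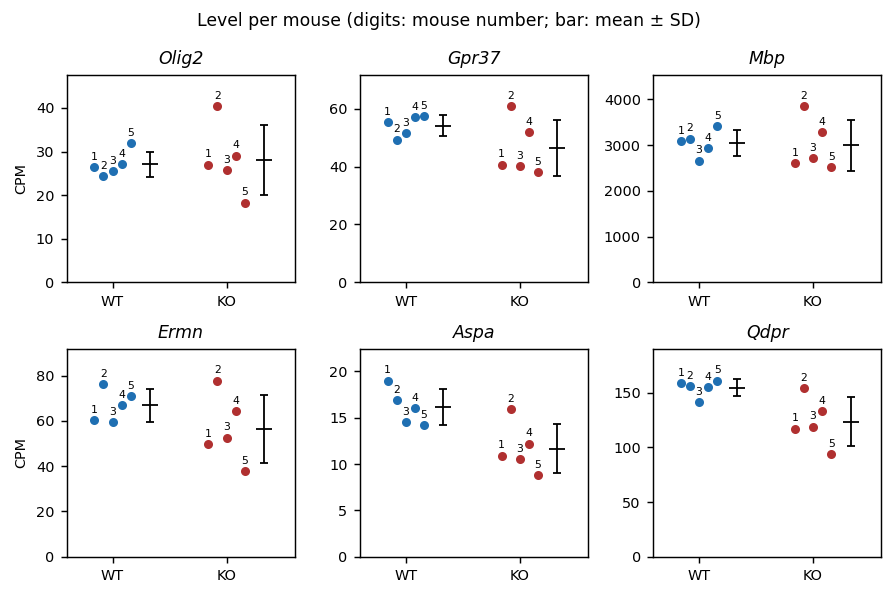
CPM of *Olig2*, *Gpr37*, *Mbp*, *Ermn*, *Aspa* and *Qdpr* in each WT and KO mouse (points), with the mean and SD of each group (bars). The KO points spread more widely than the WT points in every panel, and in *Qdpr* 4 of the 5 KO mice sit below the lowest WT mouse.

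The KO mice differed among themselves in these genes more than the WT mice did, and the same few mice were high or low in most of them. Summed over the 32 genes, the level was 6114, 8631, 6302, 7661 and 5991 CPM in KO mice 1 to 5 and 7154, 7366, 6285, 6882 and 7916 CPM in WT mice 1 to 5. KO mouse 2 was the highest of all 10 mice in 21 of the 32 genes, and KO mouse 5 was the lowest in 19. KO mice 1, 3 and 5 were below the WT mean in 31, 31 and 27 genes, KO mouse 4 in 15 and KO mouse 2 in 4. The median coefficient of variation over the 32 genes was 18.2% in KO and 8.62% in WT mice, against 8.76% and 7.6% over all genes tested. It was larger in KO than in WT mice for 31 of the 32 genes and for 59.0% of all genes. None of the 32 had every KO mouse below every WT mouse (0.683% of all genes did) and none had every KO mouse above (0.899% did).

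Since the same mice were high or low in most genes of the sheath, each gene was also expressed as a percent of the *Mbp* CPM of the same mouse. This measure was chosen after the values had been seen and is given without a test. *Qdpr* was 4.49%, 4%, 4.41%, 4.04% and 3.73% of *Mbp* in KO mice 1 to 5 and 5.15%, 4.98%, 5.30%, 5.28% and 4.72% in WT mice 1 to 5, so every KO mouse was below every WT mouse. *Aspa* was 0.417%, 0.413%, 0.387%, 0.372% and 0.351% in the KO mice and 0.615%, 0.539%, 0.547%, 0.545% and 0.418% in the WT mice, where the highest KO mouse and the lowest WT mouse almost touched. These were 2 of the 31 genes other than *Mbp*. Over all genes 0.195% had no overlap in this direction as a percent of *Mbp*, and 0.683% in CPM. Dividing by *Mbp* adds its spread to genes that do not vary with it. The share over all genes is therefore no neutral baseline for these 2. *Car2* was 4.53% ± 0.299 of *Mbp* (SD, n = 5) in KO and 5.14% ± 0.309 in WT mice, and *Gpr37* was 1.55% ± 0.0427 and 1.79% ± 0.164. *Mobp*, at 37.0% ± 1.89 and 36.5% ± 1.74, and *Mal*, at 12.5% ± 0.999 and 11.9% ± 0.461, overlapped between the groups. With the *Mbp* level as a covariate in place of the surrogate variables, edgeR gave *Qdpr* a log2 fold change of -0.31 (adjusted p = 0.0307) and *Car2* one of -0.19 (adjusted p = 0.218).

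**Figure D4:**
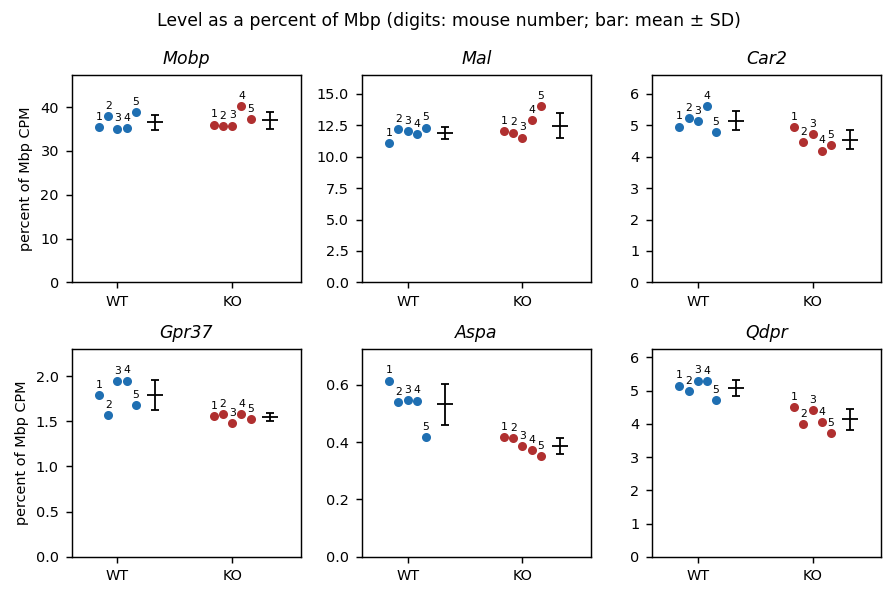
CPM of *Mobp*, *Mal*, *Car2*, *Gpr37*, *Aspa* and *Qdpr* as a percent of the *Mbp* CPM of the same mouse, with the mean and SD of each group. *Aspa* and *Qdpr* are lower in every KO mouse than in every WT mouse (0.388% against 0.533% and 4.13% against 5.09% on average), while *Mobp* and *Mal* overlap.

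The sequences just upstream of the RefSeq starts of 3 of these genes are shown because *Qdpr* and *Aspa* were the genes without overlap as a percent of *Mbp* and *Mobp* was an abundant gene with overlap. Each run is the RefSeq sequence (GRCm38.p6) from 250 to 51 bases before the first RefSeq start listed for the gene, on the strand of the gene. Windows at any further starts of these genes are not shown. Capitals mark matches to the SOX-type motif ACAAAG, or CTTTGT on the other strand, and to the E-box CAGCTG, which reads the same on both strands. The motifs do not overlap each other. The windows are chr5:45450280-45450479 (minus strand) for *Qdpr*, chr11:73324688-73324887 (minus strand) for *Aspa* and chr9:120149492-120149691 (plus strand) for *Mobp*. For *Aspa* the RefSeq start lies inside the Gencode interval given above, which begins farther upstream, so that window is within the Gencode gene and not upstream of it.
Qdpr: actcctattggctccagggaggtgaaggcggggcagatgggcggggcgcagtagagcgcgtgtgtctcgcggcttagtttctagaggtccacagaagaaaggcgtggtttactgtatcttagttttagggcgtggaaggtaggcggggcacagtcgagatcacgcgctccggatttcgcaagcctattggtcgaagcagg
Aspa: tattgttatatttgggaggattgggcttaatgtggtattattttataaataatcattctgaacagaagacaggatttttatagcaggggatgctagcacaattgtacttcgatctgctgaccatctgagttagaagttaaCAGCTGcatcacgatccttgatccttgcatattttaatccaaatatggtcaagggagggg
Mobp: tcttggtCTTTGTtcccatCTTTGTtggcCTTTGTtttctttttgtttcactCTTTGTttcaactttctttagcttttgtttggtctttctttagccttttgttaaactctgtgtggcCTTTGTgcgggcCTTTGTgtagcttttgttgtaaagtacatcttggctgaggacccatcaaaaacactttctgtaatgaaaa
The *Mobp* window held 6 matches to the SOX-type motif, the *Aspa* window 1 E-box and the *Qdpr* window neither. At least 1 window was given for 21 of the 32 genes, 31 windows in all, and a gene counted if any of its windows held the motif. The SOX-type motif was found in 5 of these 21 (*Cnp*, *Gjb1*, *Mag*, *Mobp* and *Opalin*) and in 15.4% of 27025 genes with windows of the same length. The E-box was found in 3 of 21 (*Aspa*, *Gsn* and *Hapln2*) and in 11.7%. The number of windows per gene was not matched. A match of letters is a description and not a binding site.

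Further genes of the lineage were compared as lists. Of 12 genes of oligodendrocyte precursors none passed the test and 3 had a negative log2 fold change (median 0.02), with the smallest p for *Ptprz1*, a receptor phosphatase, at 258 ± 21.6 CPM in KO and 229 ± 7.18 CPM in WT mice (log2 fold change 0.13, adjusted p = 0.203). The list summed to 555 to 647 CPM in KO and 516 to 560 CPM in WT mice. Of 11 further genes of newly formed cells none passed (median 0.02), with the smallest p for *Itpr2*, an inositol trisphosphate receptor (31.3 ± 3.05 against 25.7 ± 2.01 CPM, adjusted p = 0.163). Of 12 regulators of the lineage none passed (median 0.06), with the smallest p for *Sox8* (47.8 ± 5.20 against 40.5 ± 4.82 CPM, adjusted p = 0.143), and of 10 genes of the node and paranode none passed (median -0.02), with the smallest p for *Cntn2* (142 ± 17.4 against 162 ± 7.66 CPM, adjusted p = 0.228).

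Of 32 further genes of mature oligodendrocytes 3 fell, none rose and 29 had a negative log2 fold change, with a median of -0.18. Over all genes tested 0.223% fell, 0.579% rose and 52.2% had a negative log2 fold change. This list, too, was chosen with earlier results known. *Klk6*, a serine protease of myelinating cells, was at 0.621, 1.78, 0.247, 0.797 and 0.425 CPM in the KO mice and at 2.03, 2.91, 1.69, 1.58 and 2.19 CPM in the WT mice, with KO mouse 2 alone in the WT range (log2 fold change -1.56, SE 0.34, adjusted p = 0.044). Its counts were low, down to 8 in a KO mouse, and its log2 fold change ranged from -2.23 to -0.84 over the 33 alternative fits. *Tmem88b*, a membrane protein, was at 54.6 ± 11.0 CPM in KO and 65.9 ± 5.28 CPM in WT mice (log2 fold change -0.28, SE 0.06, adjusted p = 0.0355). *Gjc3*, the connexin 29 gene, was at 51.8 ± 10.4 CPM in KO and 61.3 ± 5.64 CPM in WT mice (log2 fold change -0.27, SE 0.06, adjusted p = 0.0308). None of these 3 passed with genotype alone (adjusted p of 0.263, 0.566 and 0.609) or without KO mouse 3 (0.115, 0.116 and 0.115), and each passed in 3 of the 10 fits that left out 1 mouse. In *Car14* and *Carns1* of this list every KO mouse was below every WT mouse in CPM, as in 0.683% of all genes. Neither passed the test (log2 fold change -0.42 and -0.26, adjusted p = 0.0697 and 0.345). In *Ank3* of the node list every KO mouse was above every WT mouse, as in 0.899% of all genes (log2 fold change 0.09, adjusted p = 0.284).

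Markers of the other cells of the cortex were read in the same fit. Of 10 astrocyte genes 1 fell, *Kcnj10*, an inward rectifier potassium channel also made by oligodendrocytes. It was at 199, 214, 186, 198 and 148 CPM in the KO mice and at 263, 236, 221, 223 and 246 CPM in the WT mice, without overlap (log2 fold change -0.28, SE 0.05, adjusted p = 0.0164, 0.201 with genotype alone and 0.0897 without KO mouse 3, and it passed in 5 of the 10 fits that left out 1 mouse). None passed of 9 microglial, 10 endothelial and mural, 10 excitatory neuron, 10 interneuron, 9 striatal and 10 meningeal genes. Their medians were -0.02, -0.09, 0.06, -0.06, 0.21 and -0.10, that of the astrocyte genes was 0.02, and the meningeal median was 0.10 with genotype alone. The smallest p in each belonged to *Cx3cr1*, *Flt1*, *Camk2a*, *Npy*, *Gpr6* and *Ogn*. The striatal genes, which mark tissue next to the PFC, summed to 329 to 493 CPM in KO and 298 to 594 CPM in WT mice, and with their score as a covariate in place of the surrogate variables *Qdpr* had a log2 fold change of -0.33 (adjusted p = 0.468) and *Car2* one of -0.22 (adjusted p = 0.71). With RIN as the covariate these were -0.33 (adjusted p = 0.0965) and -0.21 (adjusted p = 0.38). *Qdpr* was -0.24 in the mice with a RIN of 9.5 or above (3 per group) and -0.47 in those below it (2 per group), *Car2* -0.13 and -0.34, and the median of the 32 genes -0.03 and -0.18. The part of dissection and RNA quality in these results beyond those values was not tested.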

How the data were processed

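PFC RNA of 5 WT and 5 *Zbtb16* KO mice was read as stranded paired-end mRNA libraries, 1 per mouse. The authors mapped reads to mm10 by STAR (2.7.1a, per the submitters' processing notes), kept those with a unique position and assigned them to exons of Gencode M21 coding genes by HTSeq (0.9.1, intersection-strict). They deposited these counts, not normalized and not pooled, for 22000 genes. Reads that fit near-identical genes, or that lie in exons of more than 1 counted gene, are dropped by such counting. The strand setting is not given in the sources used here. Mice were grouped by the genotype in their labels. No 2 libraries of the same group agreed within sampling noise.

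From the counts, edgeR (4.0.16, in R 4.3.3) filtered low counts (14344 genes kept), scaled by TMM and fitted genotype with 3 surrogate variables (sva 3.50.0 on log2(CPM + 1), seed 1) by its quasi-likelihood test, with a false discovery rate (Benjamini-Hochberg) of 0.05 as threshold. The study used a linear model with surrogate variables. DESeq2 (1.42.0) and limma (3.58.1) served as alternatives, beside other covariates, filters, scalings and leaving out each mouse. The scripts were tested on simulated counts. Intervals are those of the fit, and the floor of 3 counts covers counting error only, since reads carry no molecular identifiers. Positions and exon lengths come from Gencode M21 (GRCm38) and promoters from RefSeq (GRCm38.p6).

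The members and lists were chosen with earlier results of these data known, so no list is tested as a whole. Values in every mouse are given for *Zbtb16*, for genes that passed, and in each stage for the gene with the highest CPM per kb, the largest absolute log2 fold change and the smallest p. From the other lists the genes that passed are named, otherwise the one with the smallest p. *Car14*, *Carns1* and *Ank3* are named because their KO and WT values did not overlap. *Olig2*, *Mobp* and the rest are given in brief. A few genes of the other lists were not analysed here.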

Additional observations from a re-analysis of the deposited data

Results flagged for a closer look

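Of 132 sets of 5 mice checked for a mouse far from the others of its group, 8 held one, and chance gives about 1 in 20. KO mouse 5 was the one in 6 of them. Its total of 51231439 counts stood above the 31644888 to 35905643 of the other KO mice. Relative to its own *Mbp* level it was high in *Enpp6* (0.596% against 0.362% to 0.419% in the other KO mice), in *Mog* (3.03% against 2.34% to 2.49%), in *Opalin* (0.802% against 0.497% to 0.569%) and in *Gsn* (3.70% against 2.63% to 2.93%). It was low in *Ermn* (1.51% against 1.91% to 2.02%). Its RIN of 8.1 was the lowest of the 10 mice, and the part of RNA quality in these values was not tested. Among the WT mice, WT mouse 2 was low in *Myrf* (1.41% of *Mbp* against 1.64% to 1.73%) and WT mouse 4 high in *Cryab* (2.69% against 2.28% to 2.35%).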

How the results depend on the processing

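Over all genes, 115 changed in the fit with 3 surrogate variables, 2 of the 32 genes among them. The counts of changed genes, and of the 32 genes that fell, were 30 and 0 with genotype alone, 35 and 0 with 1 surrogate variable, 57 and 1 with 2, 38 and 0 with RIN, 7 and 0 with the striatal score, 227 and 5 with DESeq2 (*Aspa*, *Car2*, *Ermn*, *Gpr37* and *Qdpr*), 8 and 0 with a linear model in limma, 34 and 1 with the *Mbp* level (chosen after seeing the data), 1 and 0 in mice with a RIN of 9.5 or above and 0 and 0 in those below. RLE scaling gave 116 changed genes and no count filter 129. Replicate numbers join different mice, and no label says that same-numbered mice are paired. Deviations of same-numbered mice correlated at 0.173, -0.00185, 0.116, -0.106 and 0.1, which cannot exclude a pairing. With the replicate block 24 genes changed and 0 of the 32 fell. Leaving out each mouse, with or without surrogate variables, gave 13 to 249 changed genes and 0 to 7 of the 32 lower, the highest counts without KO mouse 2. The cause of these differences was not tested.

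Of the 32 genes, 15 kept their sign in all 33 alternatives, *Qdpr*, *Car2*, *Aspa*, *Gjb1* and *Gpr37* among them. The log2 fold changes of the others that changed sign were as follows. *Mal* was 0.04 with genotype alone and with 1 surrogate variable, 0.01 with 2, 0.03 with RIN, 0.02 with the replicate block, 0.06 with *Mbp* and 0.06 at a RIN of 9.5 or above. With 1 surrogate variable *Mbp* was 0.01, *Mobp* 0.02, *Ugt8a* 0.00 and *Fa2h* 0.03, and with 2 *Fa2h* was 0.01. With the striatal score *Cldn11* was -0.01, and with *Mbp* as covariate *Mog* was 0.00 and *Mobp* 0.02. At a RIN of 9.5 or above *Sox10* was 0.05, *Mbp* 0.02, *Mag* 0.02, *Mobp* 0.01, *Fa2h* 0.06 and *Ppp1r14a* 0.06, and the median of the lineage factors was 0.05. Below it *Olig2* was -0.26, *Mog* 0.01 and *Cldn11* -0.06. Leaving out each mouse gave -0.00 to 0.13 for *Olig1*, -0.12 to 0.17 for *Olig2*, -0.28 to 0.02 for *Bcas1*, -0.11 to 0.08 for *Tspan2*, -0.13 to 0.08 for *Mbp*, -0.09 to 0.03 for *Mog*, -0.10 to 0.16 for *Mobp*, -0.10 to 0.04 for *Cnp*, -0.08 to 0.09 for *Cldn11*, -0.05 to 0.15 for *Mal*, -0.40 to 0.00 for *Hapln2*, -0.16 to 0.03 for *Ugt8a*, -0.14 to 0.05 for *Fa2h*, -0.03 to 0.15 for *Gsn* and -0.22 to 0.06 for *Ppp1r14a*.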
